A study of Mus musculus with 9 samples.

Results

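Genes that build the node of Ranvier and the axon segments beside it were followed in the frontal cortex of wild-type (WT) and Neat1-/- mice. They were chosen by name: Scn8a, Ank3, Sptbn4, Nfasc, Cntn1, Cntnap1, Cntn2, Cntnap2, Kcna1 and Kcna2. All 10 were found among the 43629 genes of the deposited counts, and all 10 were among the 19753 genes that passed the filter on low counts. The series compared 5 WT mice, aged 2, 2, 3, 4 and 4 months, with 4 Neat1-/- mice, aged 2, 3, 3 and 4 months. All were female and of the C57BL/6 strain, and each library came from RNA of the frontal cortex depleted of ribosomal RNA. In the Neat1-/- allele, a lacZ cassette with signals for polyadenylation sits just past the start of Neat1 transcription, and is not restricted to a cell type such as oligodendrocytes (OLGs). Mice are named below by genotype and by the replicate number of their label (WT 1 to 5; Neat1-/- 1, 3, 4 and 5). The labels do not say that a library came from more than 1 mouse.

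Myelinated axons conduct by saltation. At the node, the gap between myelin segments, voltage-gated sodium channels (Scn8a encodes a main subunit in the adult) are held by ankyrin G (Ank3) and beta-IV spectrin (Sptbn4) and bound to neurofascin (Nfasc). At the paranode, contactin-1 (Cntn1) and Caspr (Cntnap1) on the axon bind a glial form of neurofascin on the myelin loops. At the juxtaparanode, under the compact myelin, contactin-2 (Cntn2) and Caspr2 (Cntnap2) gather the potassium channels of Kcna1 and Kcna2. Most of these genes are transcribed in neurons, while Nfasc and Cntn2 are used by neurons and OLGs.

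The positions below are those of mm10 (GRCm38), the build the authors aligned to, from the GENCODE vM21 annotation, and all 10 are protein-coding genes. Nfasc (ENSMUSG00000026442) lies at chr1:132564690-132741797 on the minus strand. Its neighbour Cntn2 (ENSMUSG00000053024) lies at chr1:132509427-132543256, on the same strand and 21.4 kb away. The other juxtaparanodal genes are Cntnap2 at chr6:45059357-47304213, Kcna1 at chr6:126640397-126646384 and Kcna2 at chr3:107101146-107115005. Ank3 lies at chr10:69398773-70027438, Sptbn4 at chr7:27356383-27447686 and Scn8a at chr15:100869858-101045938. The paranodal pair is Cntn1 at chr15:92051165-92341967 and Cntnap1 at chr11:101170523-101190724. The counts are sums over each gene's exons, so the glial and neuronal forms of Nfasc cannot be told apart in them. Cntnap1 shares 233 exon bases with Plekhh3 on the opposite strand, and it is not given in the sources used here whether the counting used the strand.

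Nfasc had the smallest p of the 10 genes and Cntn2 is its neighbour, so the 250 bases before an annotated start of each are shown, 5′ to 3′, from RefSeq on GRCm38.p6, with each CG dinucleotide in capitals. RefSeq's table held 15 such windows for 7 of the 10 genes. The Nfasc window shown is chr1:132707327-132707576 and the Cntn2 window is chr1:132542941-132543190, both read from the minus strand. Another Nfasc window, chr1:132642859-132643108, held 1 CG dinucleotide and a GC content of 50.4%. Both Nfasc windows lie inside the annotated gene, and that nearer its 5′ end is shown.
Nfasc: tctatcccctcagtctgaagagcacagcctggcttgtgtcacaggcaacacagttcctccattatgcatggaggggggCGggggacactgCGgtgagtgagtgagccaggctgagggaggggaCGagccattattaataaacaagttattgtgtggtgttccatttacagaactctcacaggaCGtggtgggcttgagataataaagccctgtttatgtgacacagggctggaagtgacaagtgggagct
Cntn2: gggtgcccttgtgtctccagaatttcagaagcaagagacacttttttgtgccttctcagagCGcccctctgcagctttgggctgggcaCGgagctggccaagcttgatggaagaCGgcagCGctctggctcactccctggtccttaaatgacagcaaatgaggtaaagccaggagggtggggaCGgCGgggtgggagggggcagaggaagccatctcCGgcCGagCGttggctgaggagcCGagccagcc
The Nfasc window shown held 4 CG dinucleotides and a GC content of 52.0%, and the Cntn2 window held 10 and 61.2%. Over all 32851 windows of this length the median was 6 CG dinucleotides. No value of the counts bears on these windows directly, since the counts do not separate the starts of a gene.

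The libraries held between 51276067 and 64648856 counts, and the lowest count of any of the 10 genes in any library was 6000. Levels are TMM-normalized CPM, counts scaled to equal library size with a correction for composition. Neat1 checked the labels: its level was 60.8 to 120 CPM in WT mice and 7.11 to 9.72 CPM in Neat1-/- mice. Glutamatergic neuron markers summed to between 2240 and 2468 CPM in all 9 libraries and striatum markers to between 212 and 298 CPM. Other tissue was less even. Meningeal markers summed to 202 CPM in WT 4 and to between 503 and 747 CPM in the other libraries. Choroid plexus and ependymal markers summed to 482 CPM in WT 3 and to between 296 and 347 CPM in the other libraries. WT 3 and WT 4 stood apart from the other libraries. On the first principal component of all tested genes, which held 33.8% of the variance, they scored 47.7 and 42.1, and the other 7 libraries scored between -17.8 and -4.80. Results that rest on these 2 mice are therefore also given without them, except correlations over mice, which were not taken again. The labels do not say that the mice came from separate litters, and in bulk tissue fewer cells of a type cannot be told apart from less RNA per cell.

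Divided by exon length, the levels of the 10 genes in WT cortex differed widely. Cntn1 was highest, at 82.7 ± 3.55 CPM per kb of merged exons (SD, n = 5), followed by Kcna1 at 56.4 ± 1.68 CPM per kb. Scn8a stood at 31.2 ± 1.26, Cntnap1 at 27.8 ± 0.885 and Sptbn4 at 21.1 ± 1.03 CPM per kb. Each of these 5 genes was separated from the next in order by ranges that did not overlap in the WT mice. Below them, Cntn2 (17.2 ± 1.77), Nfasc (15.6 ± 1.29), Cntnap2 (14.1 ± 0.325) and Ank3 (13.8 ± 1.37 CPM per kb) followed, and the range of each of these 4 overlapped that of its neighbour among them. Kcna2 was lowest, at 9.81 ± 0.282 CPM per kb, and its range was below that of Ank3. Merged exons include those of rare transcripts, as in Ank3 with 34838 bases, so the value per kb understates a gene whose long exons are seldom used.

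**Figure D1:**
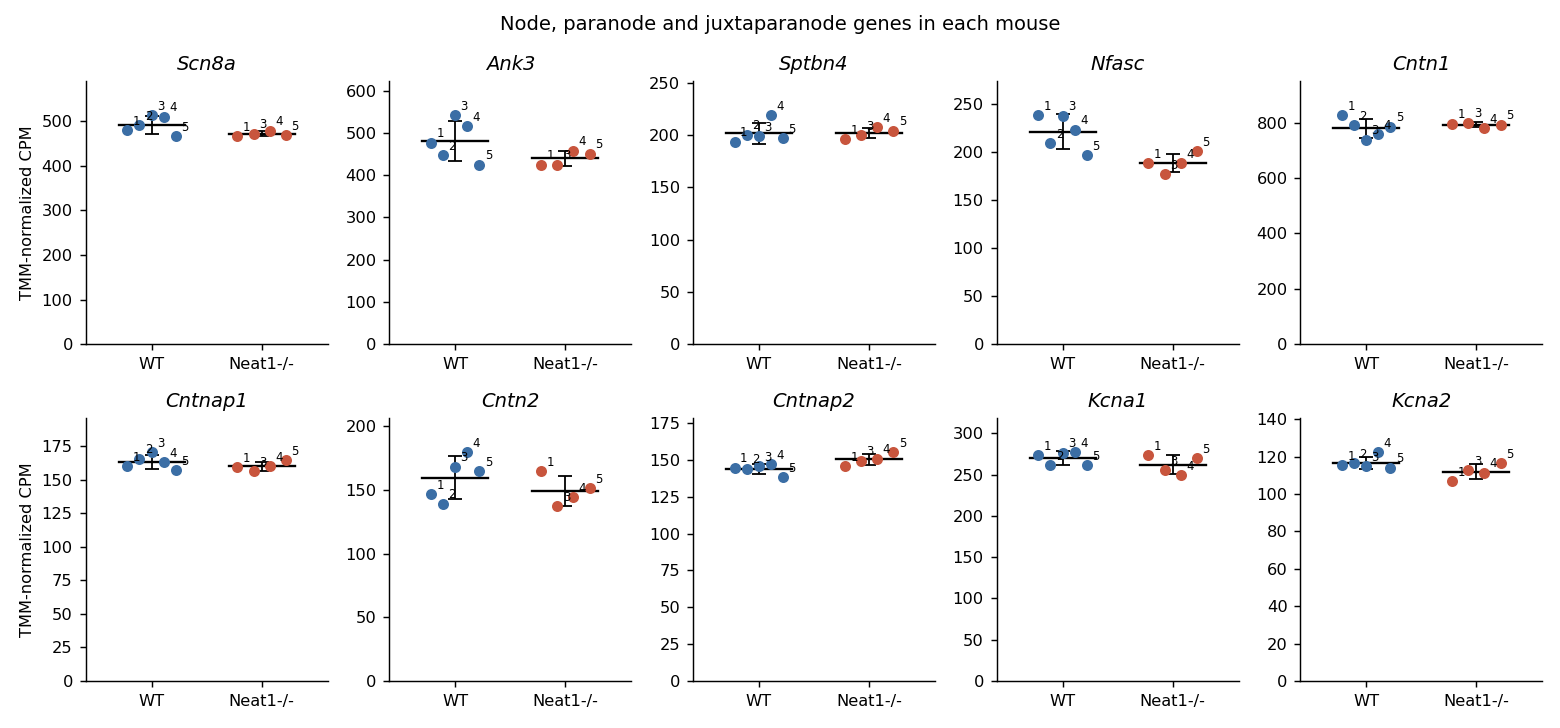
TMM-normalized CPM of each of the 10 genes in 5 WT (blue) and 4 Neat1-/- (red) mice, with the replicate number beside each point; the horizontal line is the mean and the bar the SD. Nfasc stood at 197 to 238 CPM in WT and 177 to 201 CPM in Neat1-/- mice, and the other 9 genes overlapped between genotypes too.

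Nfasc was lower in Neat1-/- than in WT cortex by 14.6%, and it was the only one of the 10 genes with an unadjusted p under 0.05. Neurofascin joins the nodal sodium channels to the axon surface and the myelin loops to the paranode. In WT 1 to 5 its levels were 238, 209, 238, 223 and 197 CPM. In Neat1-/- 1, 3, 4 and 5 they were 189, 177, 188 and 201 CPM. In all, 3 of the 4 Neat1-/- mice were below every WT mouse, and the groups overlapped only because Neat1-/- 5 was above WT 5. The means were 221 ± 18.2 CPM (SD, n = 5) and 189 ± 9.66 CPM (SD, n = 4). The log2 fold change, Neat1-/- over WT, was -0.23 (standard error 0.054, 95% interval -0.34 to -0.11). Its unadjusted p was 0.000964 and its adjusted p over all genes was 0.319 (edgeR quasi-likelihood test with age as a covariate, Benjamini-Hochberg adjustment). Permuting the genotypes of the 9 log2 levels (two-sided, exact permutation test) gave p = 0.0317, where 5 mice against 4 allow no less than 0.00794.

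Whether Nfasc passed an adjusted p of 0.05 depended on the model. DESeq2 gave an adjusted p of 0.00620 for a log2 fold change of -0.23, and called 0.38% of all genes. The limma fit with voomWithQualityWeights gave an adjusted p of 0.157 for -0.22, and called 0.111% of all genes. In the deposited log2 values the difference was -0.15 with an adjusted p of 0.0361 from limma, which called 1.65% of the 13456 genes there. From those deposited values 2 linear covariates had already been taken out, so the limma p on them counts too many degrees of freedom. Without WT 3 and WT 4 the log2 fold change was -0.16, with an unadjusted p of 0.00506 from edgeR. Nfasc was singled out by the study on these same samples, so its direction here is not independent evidence.

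The other scaffolds of the node did not move with Nfasc past the test. Ank3, ankyrin G, had 477, 448, 542, 516 and 425 CPM in WT 1 to 5. In Neat1-/- 1, 3, 4 and 5 it had 425, 425, 458 and 451 CPM. The 2 highest values were those of WT 3 and WT 4, and WT 5 was as low as the lowest Neat1-/- mice. For Ank3 the log2 fold change was -0.13 (standard error 0.062, unadjusted p = 0.0526, adjusted p = 0.602 from edgeR). Without WT 3 and WT 4 it was -0.03 (unadjusted p = 0.514 from edgeR), and without WT 5 it was -0.19 (unadjusted p = 0.00167 from edgeR). The fit without WT 5 put more genes lower at an unadjusted p under 0.05, 1679 of 19577 against 796 of 19753 with all mice. With 1 library left out the value of Ank3 ran from -0.19 to -0.09, so its size depended on the mice included.

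Sptbn4, beta-IV spectrin, had the same mean in both genotypes, at 202 ± 9.88 CPM in WT (SD, n = 5) and 202 ± 5.04 CPM in Neat1-/- mice (SD, n = 4). Its log2 fold change was 0.00 (standard error 0.036), and the 95% interval of the difference ran from -5.27% to 5.67%. Scn8a, the sodium channel, stood at 480, 491, 513, 510 and 466 CPM in WT 1 to 5 and at 466, 472, 479 and 469 CPM in Neat1-/- 1, 3, 4 and 5. Its WT values were high in WT 3 and WT 4, and WT 5 lay at the low end of the Neat1-/- values. The log2 fold change of Scn8a was -0.06 (standard error 0.033, unadjusted p = 0.0835 from edgeR), with an interval from -8.81% to 0.658%. Without WT 5, the fit in which more genes were lower, the log2 fold change of Scn8a was -0.09 (unadjusted p = 0.00689 from edgeR). Without WT 3 and WT 4 it was -0.02 (unadjusted p = 0.433 from edgeR).

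**Figure D2:**
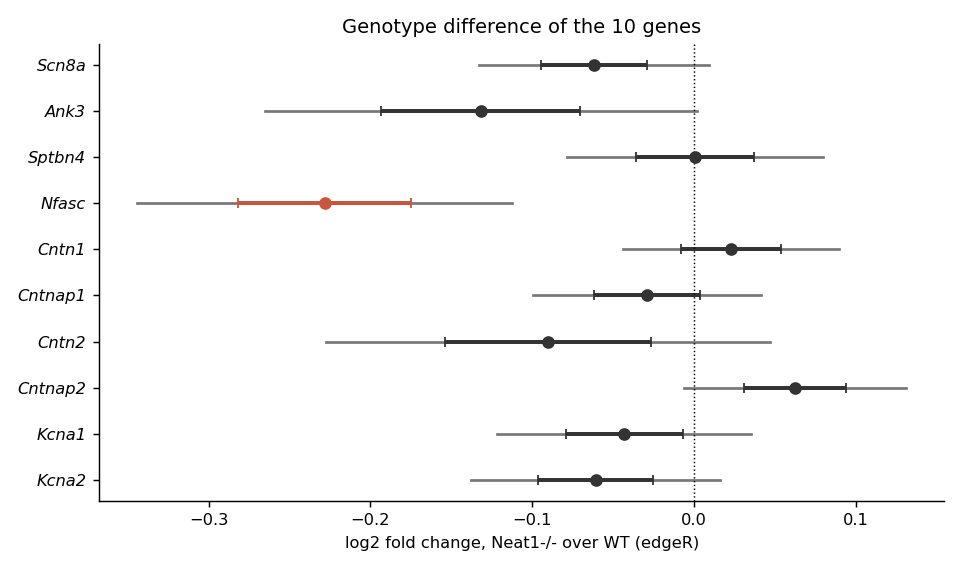
Log2 fold change, Neat1-/- over WT, of the 10 genes from edgeR; the point is the estimate, the thick capped bar the standard error and the thin line the 95% interval, and red marks an unadjusted p under 0.05. Nfasc, at -0.23, is the one gene whose interval lies wholly below 0.

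The paranodal pair on the axon did not pass the test. Cntn1, the GPI-anchored contactin, had 780 ± 33.5 CPM in WT (SD, n = 5) and 793 ± 8.69 CPM in Neat1-/- mice (SD, n = 4). In WT 1 to 5 it stood at 827, 791, 738, 759 and 785 CPM, and in Neat1-/- 1, 3, 4 and 5 at 796, 801, 780 and 793 CPM. The 4 Neat1-/- mice all lay within the WT range, which WT 1 and WT 3 set. Its log2 fold change was 0.02 (standard error 0.031), with an interval from -2.97% to 6.40%. Cntnap1, its partner Caspr, had 163 ± 5.20 and 160 ± 3.41 CPM, and its log2 fold change was -0.03 (standard error 0.033), with an interval from -6.67% to 2.94%. The highest Cntnap1 level was that of WT 3, at 171 CPM, and the lowest that of Neat1-/- 3, at 156 CPM. Plekhh3, which overlaps it, had a mean of 9.91 CPM in WT mice, against 163 CPM for Cntnap1. These 2 intervals leave out a difference as large as that of Nfasc.

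At the juxtaparanode the 4 genes did not share a direction. Cntnap2, Caspr2, had 145, 144, 146, 147 and 138 CPM in WT 1 to 5 and 146, 149, 151 and 155 CPM in Neat1-/- 1, 3, 4 and 5. In all, 3 of the 4 Neat1-/- mice were above every WT mouse and Neat1-/- 1 lay within the WT range. Its log2 fold change was 0.06 (standard error 0.032, unadjusted p = 0.0703, adjusted p = 0.630 from edgeR), and the exact permutation test gave p = 0.0317. The limma fit on the deposited log2 values gave 0.09 with an adjusted p of 0.0328, and without WT 3 and WT 4 edgeR gave 0.08 with an unadjusted p of 0.0213.

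Cntn2, the partner of Caspr2, varied most among the juxtaparanodal genes. Its levels were 147, 139, 168, 180 and 165 CPM in WT 1 to 5, and 165, 137, 144 and 151 CPM in Neat1-/- 1, 3, 4 and 5. WT 1 and WT 2 were lower than the other 3 WT mice and lay among the Neat1-/- mice. The log2 fold change of Cntn2 was -0.09 (standard error 0.063, unadjusted p = 0.179 from edgeR), with an interval from -14.6% to 3.33%. It was -0.02 without WT 3 and WT 4 (unadjusted p = 0.727 from edgeR) and -0.15 without Neat1-/- 1 (unadjusted p = 0.0428 from edgeR). Without Neat1-/- 3 and Neat1-/- 4 in turn it was -0.05 and -0.04, so the size of the Cntn2 difference depended on the mice included. Kcna1 had 270 ± 8.03 CPM in WT (SD, n = 5) and 262 ± 11.7 CPM in Neat1-/- mice (SD, n = 4), a log2 fold change of -0.04 (unadjusted p = 0.258 from edgeR), or -0.01 without WT 3 and WT 4. Neat1-/- 3 and Neat1-/- 4 had less Kcna1 (255 and 249 CPM) than any WT mouse (261 to 277 CPM), and the other two lay within the WT range. Kcna2 had 117 ± 3.35 and 112 ± 4.01 CPM, a log2 fold change of -0.06 (unadjusted p = 0.111 from edgeR), or -0.04 without those 2 mice and -0.09 without Neat1-/- 5 (unadjusted p = 0.0418 from edgeR). In all, 3 of the 4 Neat1-/- mice had less Kcna2 than every WT mouse.

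Counted together, edgeR called 0 of the 10 genes at an adjusted p under 0.05, where it called 0.0709% of all genes tested. At an unadjusted p under 0.05, 1 of 10 was lower against 4.03% of all genes, and 0 of 10 were higher against 4.27%. DESeq2 called 1 of the 10, Nfasc, at an adjusted p under 0.05, and the limma voom fit called 0. Of the 10 genes, 7 had a negative log2 fold change, against 50.1% of all genes. The median was -0.05 over the 10 genes, 0.00 over all genes tested, and 0.01 over the 1970 genes at or above the lowest of the 10 in mean CPM. In none of the 10 were all Neat1-/- mice below all WT mice (1.01% of all genes) or above them (1.66%). The highest of the 9 libraries was WT 3 or WT 4 for 7 of the 10 genes, against 31.7% of all genes. Without these 2 libraries 8 of the 10 log2 fold changes were negative, and their median was -0.02.

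Ratios of partner genes within a library do not depend on the scaling between libraries. In all, 6 pairs were compared, and 0 passed an adjusted p of 0.05. The log2 ratio of Nfasc to Nrcam, another adhesion molecule of the node, was -1.69 ± 0.12 in WT (SD, n = 5) and -1.89 ± 0.082 in Neat1-/- mice (SD, n = 4), a difference of -0.21 (two-sided exact permutation p = 0.0476, adjusted p = 0.143 over 6 pairs). Nrcam itself differed by a log2 fold change of -0.02 (standard error 0.025). The log2 ratio of Scn8a to Scn2a, the sodium channel of immature nodes, differed by -0.10 with the same 2 p-values by the exact permutation test. It was -0.48 and -0.49 in WT 3 and WT 4 and between -0.64 and -0.61 in the other WT mice, against -0.71 to -0.64 in Neat1-/- mice. Without WT 3 and WT 4 the difference was -0.04 for Scn8a to Scn2a (exact permutation p = 0.0857) and -0.15 for Nfasc to Nrcam (exact permutation p = 0.114), each with an adjusted p of 0.343. The log2 ratio of Sptbn4 to Ank3 was lowest in WT 3, at -1.45, and differed by 0.13 (exact permutation p = 0.0873), or by 0.07 without WT 3 and WT 4. For Cntn2 to Cntnap2 the difference was -0.16 (exact permutation p = 0.143), or -0.09 without those 2 mice, for Cntn1 to Cntnap1 0.05 (exact permutation p = 0.365), and for Kcna1 to Kcna2 0.02 (exact permutation p = 0.762). The ratio of Kcna1 to Kcna2 was highest in Neat1-/- 1, where Kcna2 had its lowest level of 107 CPM and Kcna1 stood at 274 CPM.

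The wider set of node, paranode, juxtaparanode, perinodal matrix and paralogous genes had counts near those of all genes. Of 65 such genes, 2 were lower (3.08%, against 4.03% of all genes) and 4 higher (6.15%, against 4.27%) at an unadjusted p under 0.05, edgeR called 0 at an adjusted p under 0.05, and the median log2 fold change was 0.01. Of 15 other nodal channels and their partners, 1 was lower, and its values are not reported here. In that list Fgf12, a sodium channel partner, was higher by 0.08 (standard error 0.035) on the log2 scale. Of 18 other adhesion and scaffold genes, Cd9, a tetraspanin of the paranode, was higher by 0.15 (standard error 0.065) on the log2 scale, and 0 were lower. Of 15 other juxtaparanodal genes, Lgi1, a secreted partner of the potassium channel complex, was lower, at -0.07 (standard error 0.032) on that scale. Of 8 perinodal matrix genes, Bcan (brevican) was higher by 0.08 (standard error 0.035), and of 9 paralogs of contactins and Caspr, Cntnap5a was higher by 0.09 (standard error 0.038), both on the log2 scale. Each of the 5 changes with values given here was smaller than that of Nfasc, and their unadjusted p ran from 0.0332 to 0.0486 (edgeR).

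**Figure D3:**
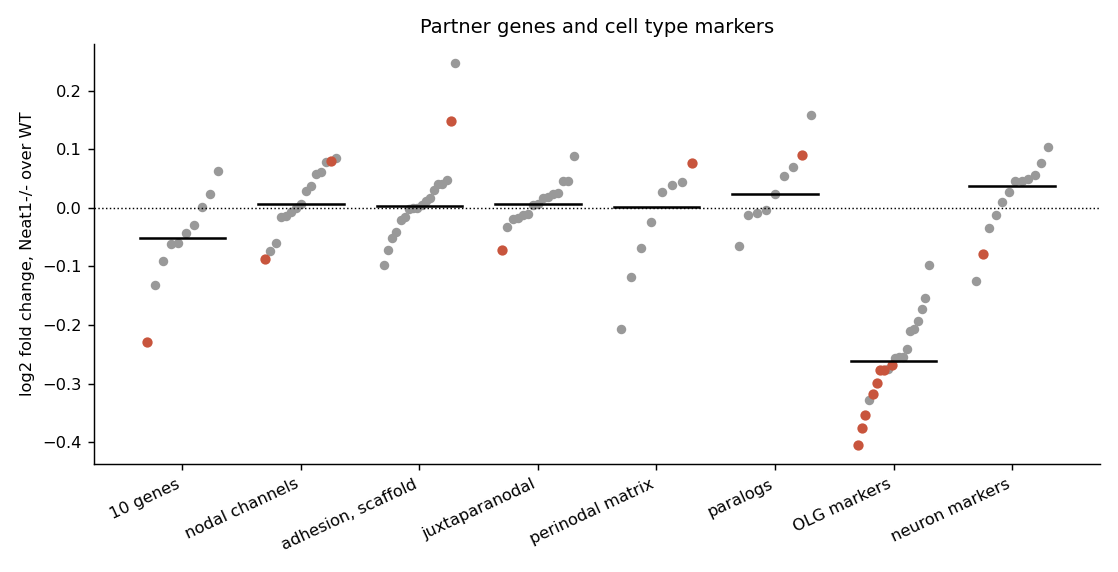
Log2 fold change, Neat1-/- over WT, of each gene of the 10, of 5 lists of partner genes, and of mature OLG and pan-neuronal markers; 1 point is 1 gene, red marks an unadjusted p under 0.05 (edgeR) and the line is the median of the list. The medians of the partner lists lie between 0.00 and 0.02, and that of the OLG markers lies at -0.26.

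Beside Nfasc, markers of mature OLGs had negative log2 fold changes, with summed levels that overlapped between genotypes. The sign was negative for all 20, the median log2 fold change was -0.26, and edgeR put 0 below an adjusted p of 0.05. At an unadjusted p under 0.05 it put 8 in the lower direction, where 4.03% of all genes were lower. The number of lower markers was 3 with DESeq2, 1 with the limma voom fit and 4 without WT 3 and WT 4. Opalin stood at -0.40 (standard error 0.12), Mal at -0.38 (standard error 0.15) and Tspan2 at -0.30 (standard error 0.12). The summed level of the list was 2500 to 3930 CPM in WT and 2129 to 3234 CPM in Neat1-/- mice, and no marker was at 0 in any library. These ranges overlapped, and WT 2, at 2500 CPM, lay below Neat1-/- 1 and Neat1-/- 5, at 3234 and 3078 CPM. Of 11 markers listed for progenitors 4 were lower, Olig2 among them with -0.40 (standard error 0.087) and Olig1 with -0.26 (standard error 0.054). The study used Olig2 as a marker of both progenitors and mature OLGs, so the list is not specific to progenitors. It summed to 336 to 369 CPM in WT and 297 to 327 CPM in Neat1-/- mice. Of 12 axon and pan-neuronal markers 1 was lower, Nefl with -0.08 (standard error 0.036), 0 were higher, and the median was 0.04. Microglia markers went the other way: of 10, 4 were higher, against 4.27% of all genes, 0 were lower, and the median was 0.05. Choroid plexus and ependymal markers were negative in 10 of 10, and 1 of them was lower at an unadjusted p under 0.05 (edgeR). They summed to 482 CPM in WT 3, to 334 to 347 CPM in the other WT mice and to 296 to 323 CPM in Neat1-/- mice. The part of these cell types in the Nfasc result was not tested. The study reported Olig1, Olig2 and Tspan2 as lower on these same samples, so their direction here is not independent evidence.

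Among the mice, the 10 genes did not vary as 1 block. Log2 CPM was freed of genotype and age, and Pearson correlations were taken over the 9 libraries, which share any effect of depth and composition, so they are given as a description. Nfasc and Ank3 varied together (r = 0.90), as did Cntn2 and Kcna1 (r = 0.96), Sptbn4 and Kcna2 (r = 0.89), and Scn8a and Ank3 (r = 0.88). The paranodal partners Cntn1 and Cntnap1 varied in opposite directions (r = -0.94), with Cntn1 lowest and Cntnap1 highest in WT 3. Kcna1 and Kcna2, whose proteins share channels, had an r of 0.09, and Cntn2 and Cntnap2 one of 0.15.

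Of the 10 genes, 3 followed the OLG markers over mice. With 14 mature OLG markers of at least 10 CPM, the median r was 0.69 for Cntn2, 0.68 for Kcna1 and 0.50 for Nfasc, and each of the 3 correlated positively with all 14. The medians of the other 7 genes lay between -0.28 and 0.15, and Ank3, at 0.15, correlated positively with 13 of the 14. With all genes of at least 10 CPM the median r was -0.10 for Cntn2, -0.12 for Kcna1 and -0.20 for Nfasc. The 14 markers were read in the same 9 libraries, so their signs are not 14 separate observations. Nfasc followed the markers only in part. WT 2, whose OLG markers summed to 2500 CPM, had 209 CPM of Nfasc, and WT 5, with 3418 CPM of markers, had less Nfasc at 197 CPM. In Neat1-/- 3 both were at their lowest, at 2129 CPM of markers and 177 CPM of Nfasc.

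**Figure D4:**
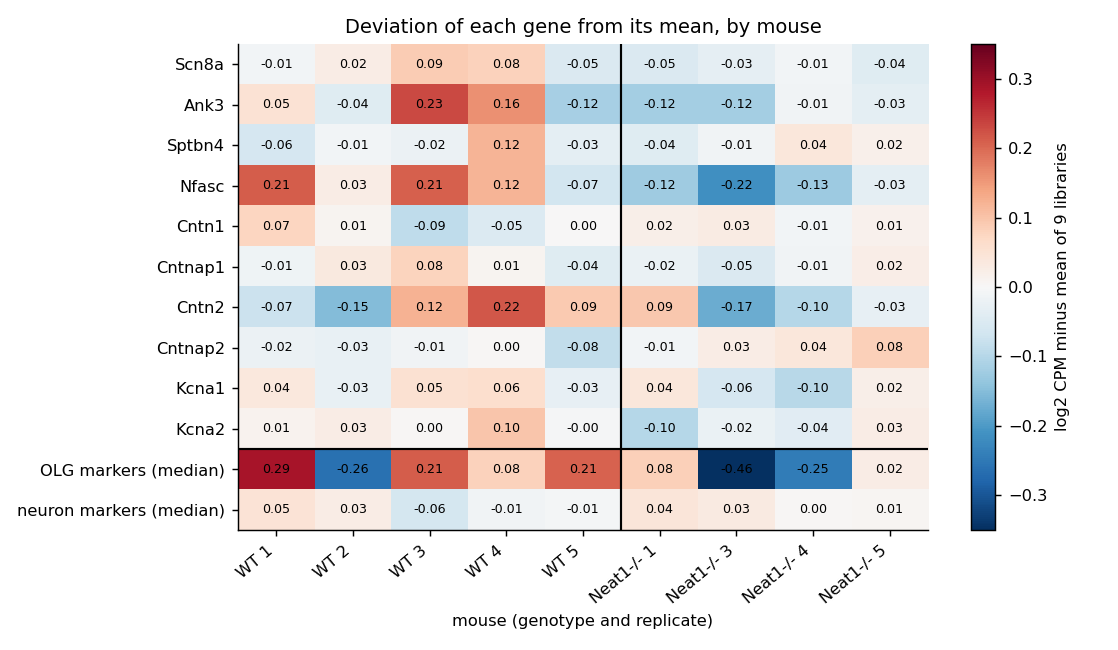
Log2 CPM of the 10 genes in each mouse minus the gene's mean over 9 libraries, with the median of the mature OLG markers and of the pan-neuronal markers in the lower rows; red is above and blue below the mean. Ank3 and Scn8a are highest in WT 3 and WT 4, Nfasc is above its mean in WT 1 to 4, and both Nfasc and the OLG markers are lowest in Neat1-/- 3.

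Of 9972 genes with at least 10 CPM, those with the pattern most like each member were found on the same residuals. Each was picked as among the highest of 9972 values of r over 9 libraries. For all 10 members the picked r were 0.93 or more, so a high r here does not set a pair apart. For Nfasc they were Dcc (r = 0.98), Pigb (0.96) and Bcorl1 (0.96), and for Ank3 Meg3 (0.99), ENSMUSG00000097225 (0.99) and Pclo (0.98). For Cntn2 they were Kif13b (0.96), Kcna1 (0.96) and Car2 (0.95), and for Kcna1 Cntn2 (0.96), Wars2 (0.95) and Atg16l1 (0.95). For Cntn1 they were Ndufb3 (0.99), Tmem158 (0.99) and Rab5if (0.98), and for Cntnap1 Nova1 (0.99), Mtf2 (0.99) and Iqsec3 (0.99). Cntn2 and Kcna1 were thus the single pair of the 10 that were among each other's nearest genes. For Cntnap2 they were Rdh10 (0.99), Mir124a-1hg (0.97) and Rnf32 (0.96), and for Scn8a Slf2 (0.98), Kcnh7 (0.98) and Snx29 (0.98). For Sptbn4 they were Vps13a (0.99), Abcc5 (0.98) and Pgr (0.98), and for Kcna2 Carmil3 (0.94), Smpd4 (0.94) and Prkab2 (0.93).

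No age slope passed the test for any of the 10 genes between 2 and 4 months. At an unadjusted p under 0.05 from edgeR, 0 of 10 had an age slope, against 5.98% of all genes, and 0% of all genes passed an adjusted p of 0.05. Cntn2 had the steepest slope, 0.08 log2 units per month (standard error 0.039, unadjusted p = 0.0656 from edgeR). Its level was 139 to 151 CPM in the 3 mice of 2 months, 137 to 168 CPM in those of 3 months and 144 to 180 CPM in those of 4 months. These ranges overlapped, and without WT 3 and WT 4 the slope was 0.05 (unadjusted p = 0.225 from edgeR). The slopes of the other 9 genes lay between -0.05 (Nfasc) and 0.03 (Sptbn4) log2 units per month.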

How the data were processed

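RNA from the frontal cortex of 5 WT and 4 Neat1-/- mice was sequenced from libraries without ribosomal RNA. For each Ensembl gene, raw counts were deposited by the authors. They also deposited log2 values, normalized, with linear covariates removed, for 13456 genes. The submitters' processing notes name STAR 2.5.0, HTSeq 0.8.0 and limma, and the genome was mm10. The strand setting of the counting is not given in the sources used here.

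From the deposited counts, genes were kept with filterByExpr by genotype and tested with edgeR 4.0.16 (R 4.3.3; TMM, glmQLFit, glmQLFTest) on age in months and genotype, with Benjamini-Hochberg adjustment over all 19753 genes. The common biological coefficient of variation was 0.0922. Names came from GENCODE vM21, in which 42548 of 43629 IDs had a name; Lhfpl3, 1 of 195 list symbols, had no ID. Intervals are at 95% and use the t distribution of the fit. Log2 CPM used a prior count of 2, and ratios an offset of 0.5. Permutation tests enumerated 126 regroupings. DESeq2 1.42.0 and limma 3.58.1 were alternatives, beside other scalings, filters and age terms, a replicate block and each library left out. The test was checked on simulated counts. Figures were drawn with Matplotlib 3.10.9. Tables were handled in Python 3.11.15 with pandas 2.3.3 and NumPy 2.4.6.

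The 10 genes and all lists were chosen with earlier results of these data known. The rule for names was each of the 10, Neat1, both genes of each ratio, the 3 most similar genes per member, and of each list up to 3 genes of smallest p among those at an unadjusted p under 0.05, or else the 2 of highest CPM. Microglia, astrocyte, endothelial, interneuron and meningeal markers were also counted: of 10 each, 4, 1, 1 and 0 were higher for microglia, astrocytes, endothelium and meninges, with 1 of 9 for fast-spiking interneurons, and 2 of 10 for glutamatergic neurons and striatum each, and 0 were lower apart from 1 striatum gene and 1 choroid plexus gene. The values of 1 gene that the rule names are not reported here.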

Additional observations from a re-analysis of the deposited data

Results flagged for a closer look

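Sptbn4 in the WT mice held 1 value far from the others. Its level in WT 4 was 218.8 CPM, against 193.6 to 200.3 CPM in the other 4 WT mice, so the gap to the next mouse was 73.5% of the whole range. Of 32 groups of 4 or 5 mice checked in this way, 1 stood out, and chance alone marks about 1 in 20 such groups.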

How the results depend on the processing

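The log2 fold change of Nfasc stayed negative, with an unadjusted p under 0.05, under all 20 alternatives run, from -0.27 to -0.15, and its adjusted p ran from 0.00620 to 0.880. With no filter its adjusted p was 0.0090. The number of the 10 genes lower at an unadjusted p under 0.05 was 2 with DESeq2, with library sizes alone, with no filter, with no age term and with a replicate block, and 3 with limma voomWithQualityWeights; with each library left out in turn it ranged from 1 to 3. Outside the fits that left out a library, Ank3 was the added gene, with Scn8a in the limma fit. Over all genes, 796 of 19753 were lower in the main fit. That count was 792 with DESeq2, 868 with limma voomWithQualityWeights, 947 with library sizes alone and 804 with no age term, each of 19753. With no filter it was 1353 of 32164, and with a replicate block 1172 of 19585. With a library left out it ranged from 539 of 20093 to 1679 of 19577. The number of the 10 genes higher was 1 with the deposited log2 values, where 1378 of 13456 genes were higher. It was 1 without WT replicates 3 and 4, an alternative chosen after seeing the data, where 751 of 19714 genes were higher. The number of the 10 at an adjusted p under 0.05 was 1 with DESeq2, 1 with no filter and 2 with the deposited log2 values, and 0 with each library left out. Over all genes, DESeq2 called 30 lower and 45 higher, the fit with no filter 27 and 49, and the deposited values 85 and 137. The number of the 10 with an age slope at an unadjusted p under 0.05 was 1 with DESeq2, 1 with no filter and 1 without WT replicates 3 and 4. It ranged from 0 to 1 with a library left out. Over all genes, negative and positive age slopes at that p numbered 604 and 509 of 19753 with DESeq2 and 843 and 905 of 32164 with no filter. Without WT replicates 3 and 4 they numbered 608 and 641 of 19714.

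Values near 0 changed sign, and for these the cause was not tested. The log2 fold change of Cntn1 was -0.00313 with the deposited log2 values and -0.0122 without WT replicates 3 and 4, and ranged from -0.000697 to 0.0340 with a library left out. That of Sptbn4 was -0.00102 with DESeq2, -0.00936 with limma voomWithQualityWeights, -0.000973 with DESeq2 size factors in edgeR, -0.00992 with library sizes alone, -0.0102 with at least 1 CPM in 4 libraries and -0.00458 with a replicate block, and ranged from -0.0226 to 0.0234 with a library left out. The age slope of Kcna2 was 0.00514 with library sizes alone and 0.00418 with at least 1 CPM in 4 libraries, and ranged from -0.0183 to 0.0149 with a library left out. Without WT replicates 3 and 4 the age slope was -0.0272 for Ank3 and -0.00779 for Scn8a. With a library left out it ranged from -0.0129 to 0.0577 for Ank3, from -0.00139 to 0.0298 for Scn8a and from -0.0340 to 0.00234 for Kcna1. The log2 ratio difference of Cntn1 to Cntnap1 was -0.00717 without WT replicates 3 and 4, and that of Kcna1 to Kcna2 ranged from -0.0255 to 0.0399 with a library left out. Of the other 65 node, paranode and juxtaparanode genes, 4 were lower and 1 higher with library sizes alone, against 947 and 648 of all 19753 genes. With limma voomWithQualityWeights 4 were lower and 7 higher, against 868 and 1087 of 19753. Without WT replicates 3 and 4, 2 were higher, against 751 of 19714. Mature OLG markers that were lower numbered 3 with DESeq2 and 1 with limma voomWithQualityWeights, beside the counts over all genes given above. Without WT replicates 3 and 4 they numbered 4, against 687 of 19714 genes.

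The replicate numbers did not pair the mice: deviations from the group means of same-numbered mice correlated at 0.04, -0.04, 0.14 and -0.08, and 1 of the 4 Neat1-/- mice correlated best with its own number. With the replicate block the log2 fold change of Nfasc was -0.25. With 6000 or more counts per gene and library, counting error was small, and the spread among 9 mice set the width of the intervals.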
